A study of Homo sapiens with 4 samples.

Results

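The regions described are the CTCF peaks of chromosome 21, taken as all peaks that the deposited peak list places on that chromosome, with no other selection. There were 434 of them among 42462 peaks in all. The assay was ChIP-seq, which sequences the DNA recovered with an antibody, and the cells were MDA-MB-435, a human cell line labelled as melanoma. The study had 2 asynchronous samples with a rabbit antibody against CTCF and 2 mitotic samples, arrested with nocodazole, with an antibody against pT431 CTCF. The peaks come from asynchronous replicate 1, and the remaining 3 samples were not analysed here. Every value therefore has no replicate check, no test between samples was possible, and all 95% intervals cover counting error only. A peak list gives no expression, so it cannot check the labelled cell type.

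CTCF is a zinc finger protein that binds a long, directional DNA motif. It halts cohesin as cohesin extrudes chromatin loops, and its sites mark loop anchors, domain boundaries and insulators, many of them far from genes and some at promoters. Chromosome 21 is the smallest human autosome, acrocentric, with a short arm of ribosomal RNA genes and repeats, a long arm whose first part is poor in genes, and a gene-rich distal part that holds most of the genes studied for dosage in Down syndrome.

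Promoters are the only sequence that could be read under these peaks, strong and weak. RefSeq promoter windows of assembly GRCh38.p14 run from 250 bases before to 50 bases after each annotated start. They were searched on both strands for a CTCF word of 12 letters, which is CC, any 3 bases, AG, A or G, G or T, and GGC, and for its 7-letter end alone. The 7-letter end lies within every longer word. Of 485 chromosome 21 windows, 32 (6.60%, 4.56 to 9.19) overlapped a peak, against 11.3% of 33073 windows of the other autosomes. The chromosome 21 windows include some of the short arm, and this share was not computed without them. The longer word was in 5 of those 32 windows (15.6%, 5.28 to 32.8) and in 14 of the 453 windows with no overlapping peak (3.09%, 1.70 to 5.13). Some windows share a peak, such as those of APP and APP-DT, and the intervals treat them as independent. On the other autosomes the shares were 15.8% with a peak and 2.36% without one, and over all their windows it was in 3.87%. The 7-letter end alone was in 40.6% of the chromosome 21 windows with a peak and 27.8% of those without, and in 30.4% of all windows of the other autosomes. Windows with a peak were also richer in G and C, at 69.3% of bases against 55.6%, and the part of base composition in these shares was not tested.

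The 4 peaks at these 5 words are shown by 1 promoter each, because BACH1 and the noncoding LOC105369299 share both peak and word. Each line gives the 250 bases before the start in the direction of transcription, with the 12-letter word in capitals.
HLCS, minus strand, chr21:36990212-36990461: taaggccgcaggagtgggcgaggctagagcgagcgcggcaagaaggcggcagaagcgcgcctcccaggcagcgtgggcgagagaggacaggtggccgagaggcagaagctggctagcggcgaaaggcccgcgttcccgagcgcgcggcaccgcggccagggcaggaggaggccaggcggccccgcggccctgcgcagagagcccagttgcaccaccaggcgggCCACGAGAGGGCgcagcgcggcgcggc
BACH1, plus strand, chr21:29298672-29298921: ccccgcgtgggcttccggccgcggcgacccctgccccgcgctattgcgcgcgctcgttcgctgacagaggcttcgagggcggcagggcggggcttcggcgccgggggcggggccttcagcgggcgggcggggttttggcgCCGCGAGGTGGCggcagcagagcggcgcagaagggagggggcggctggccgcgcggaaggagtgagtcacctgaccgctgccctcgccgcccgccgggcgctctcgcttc
MCM3AP-AS1, plus strand, chr21:46228981-46229230: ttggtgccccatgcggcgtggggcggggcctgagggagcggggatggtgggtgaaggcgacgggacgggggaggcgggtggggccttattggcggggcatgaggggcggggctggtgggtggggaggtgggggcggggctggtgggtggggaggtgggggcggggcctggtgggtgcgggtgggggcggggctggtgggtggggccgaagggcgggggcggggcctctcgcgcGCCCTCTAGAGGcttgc
PDXK, plus strand, chr21:43718879-43719128: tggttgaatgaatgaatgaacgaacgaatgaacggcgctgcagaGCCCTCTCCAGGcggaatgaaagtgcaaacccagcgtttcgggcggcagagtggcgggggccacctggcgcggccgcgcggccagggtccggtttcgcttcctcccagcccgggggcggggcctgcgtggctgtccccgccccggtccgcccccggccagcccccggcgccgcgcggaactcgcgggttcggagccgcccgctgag
In HLCS and BACH1 the word reads in the direction of the gene, and in MCM3AP-AS1 and PDXK it reads on the opposite strand. The word lay 27 bp from the peak centre at HLCS, 17 bp at BACH1, 48 bp at MCM3AP-AS1 and 64 bp at PDXK. Over the 5 windows, with BACH1 and LOC105369299 counted separately, 4 had the word within 50 bp of the peak centre. On the other autosomes 81.5% of 589 did.

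The promoters of RRP1 and COL6A2 are printed because their peaks are among the stronger ones, their peak centres lie inside the window, and neither window holds the 12-letter word.
RRP1, plus strand, chr21:43789327-43789576: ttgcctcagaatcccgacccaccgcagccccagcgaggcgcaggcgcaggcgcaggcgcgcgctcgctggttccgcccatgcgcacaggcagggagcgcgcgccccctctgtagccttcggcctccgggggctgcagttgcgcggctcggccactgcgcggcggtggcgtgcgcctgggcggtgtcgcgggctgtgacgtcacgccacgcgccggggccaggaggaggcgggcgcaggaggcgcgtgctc
COL6A2, plus strand, chr21:46097862-46098111: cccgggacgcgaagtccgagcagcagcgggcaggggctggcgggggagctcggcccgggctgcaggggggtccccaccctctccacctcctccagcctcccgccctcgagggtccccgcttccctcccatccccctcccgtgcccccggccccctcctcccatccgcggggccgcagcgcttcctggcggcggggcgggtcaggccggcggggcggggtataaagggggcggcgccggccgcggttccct
That says only that the 12-letter word was not found in these windows. The 7-letter end alone is in each printed sequence, as agggggc in COL6A2 and, on the opposite strand, as gccccct in RRP1. That end was also in 27.8% of the chromosome 21 windows with no overlapping peak, so its presence says little by itself.

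The first comparison asked how densely chromosome 21 carries peaks beside the other autosomes. It had 11.05 peaks per Mb (10.03 to 12.1) over 39.3 Mb, the lowest of the 22 autosomes. The others ran from 11.3 on chromosome 4 to 26.7 on chromosome 19, with a median of 15.5. Among peaks at or above the list's median score it had 5.06 per Mb, and 2 autosomes were lower. The interval of chromosome 21 overlaps those of chromosome 4 (10.9 to 11.8), chromosome 13 (11.8 per Mb, 11.1 to 12.5) and chromosome 18 (12.2 per Mb, 11.5 to 13.1). Length here leaves out the 2 stretches of at least 1 Mb with neither an annotated gene nor a peak, which are the first 5.01 Mb and 10.65 to 13.04 Mb.

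Low peak density did not go with equally low gene density. Chromosome 21 carried 6.06 protein-coding genes per Mb, and 9 autosomes carried fewer. Chromosomes 13 and 18, which had slightly more peaks per Mb, held 3.49 and 3.59 genes per Mb. Chromosome 22, the autosome nearest in size, had 765 peaks, or 20.2 per Mb (18.8 to 21.7), and 11.7 genes per Mb. A straight line through the other 21 autosomes put 14.7 peaks per Mb at the gene density of chromosome 21, which lay 3.66 per Mb below it. No other autosome lay more than 1.95 per Mb below that line, the distance of chromosome 4. The long arm alone lay 2.31 per Mb below the line. Its 219 protein-coding genes include 49 keratin-associated genes, most of them packed close together, and 170 remain without these. Distances from the line were not computed without them, so they hold only for gene densities that count these genes.

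**Figure D1:**
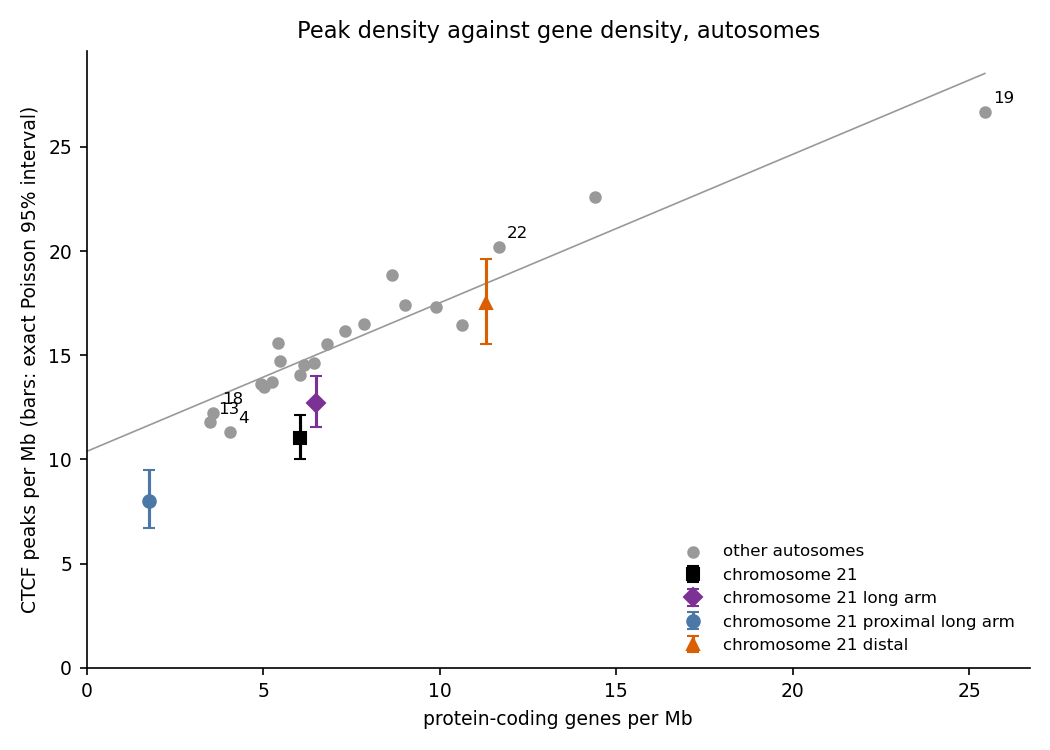
CTCF peaks per Mb (vertical) against protein-coding genes per Mb (horizontal) for each autosome (grey points, with the straight line through them) and for chromosome 21, its long arm, the proximal long arm and the distal part, with exact Poisson 95% intervals. Chromosome 21 at 11.05 peaks per Mb sits below the line, and its distal part at 17.5 per Mb lies near it.

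Windows of 1 Mb were then compared by their number of genes. At the rates that the other autosomes have in windows of 0, 1 to 4, 5 to 9 and 10 or more genes, chromosome 21 would carry 569 peaks. It carried 0.763 of that number (0.693 to 0.838), the lowest ratio of the 22 autosomes, followed by 0.881 (0.844 to 0.919) on chromosome 4. The short arm accounts for part of the distance. It has 6 peaks and 19 protein-coding genes in 5.64 Mb, or 1.06 peaks per Mb (0.390 to 2.32). On the long arm alone, a setting chosen after seeing the data, there were 428 peaks, or 12.7 per Mb (11.5 to 13.98), and 3 autosomes were lower. The long arm's ratio was 0.867 (0.787 to 0.953), an interval that overlaps that of chromosome 4.

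Of these 4 classes, only the most gene-rich windows of the long arm had an interval below the rate of the other autosomes. In the 9 windows of 10 or more genes it had 17.3 peaks per Mb (14.6 to 20.3), against 25.2 (24.8 to 25.6) on the other autosomes. In the 7 windows of 5 to 9 genes it had 19.1 (16.0 to 22.7) against 17.3. The 10 windows of 1 to 4 genes had 10.4 (8.53 to 12.7) against 11.0, and the 8 windows with no gene had 5 (3.57 to 6.81) against 5.58. The 2 windows with the most genes, 34 and 32, hold 48 of the 49 keratin-associated genes, which encode hair proteins, and had 14 and 24 peaks. The other long-arm windows of this class held 10 to 15 genes and had 12 to 20 peaks, the fewest in the shortened last window. The class has no upper limit, so gene numbers within it were not matched to those of the other autosomes. With keratin-associated genes left out on every autosome, also chosen after seeing the data, the long arm's ratio was 0.904 (0.821 to 0.994), second lowest of the 22.

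Along the chromosome, the proximal and distal parts were separated at 30 Mb. The proximal part held 142 peaks in 22.6 Mb, or 6.28 per Mb (5.29 to 7.41), a density below that of every other autosome. That sets a gene-poor part, short arm included, against whole autosomes. On the other autosomes, windows with no gene had 5.58 peaks per Mb and those of 1 to 4 genes 11.0. The distal part held 292 in 16.7 Mb, or 17.5 per Mb (15.5 to 19.6), a density above that of 17 of the 21 others. The distal density was 2.78 times the proximal one (2.27 to 3.43). Within the long arm, where the proximal part had 136 peaks and 8.02 per Mb (6.73 to 9.48), it was 2.18 times (1.77 to 2.69). Protein-coding genes differed more, by 5.22 times (3.80 to 7.31), or 6.40 times (4.34 to 9.75) within the long arm. The proximal part therefore had more peaks for each gene, 4.53 on its long-arm stretch against 1.545 in the distal part. Given the genes per window, the proximal long arm had 0.846 (0.710 to 1.0005) of the peaks at the rates of the other autosomes, and the distal part 0.877 (0.779 to 0.984). Those 2 ratios overlap.

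**Figure D2:**
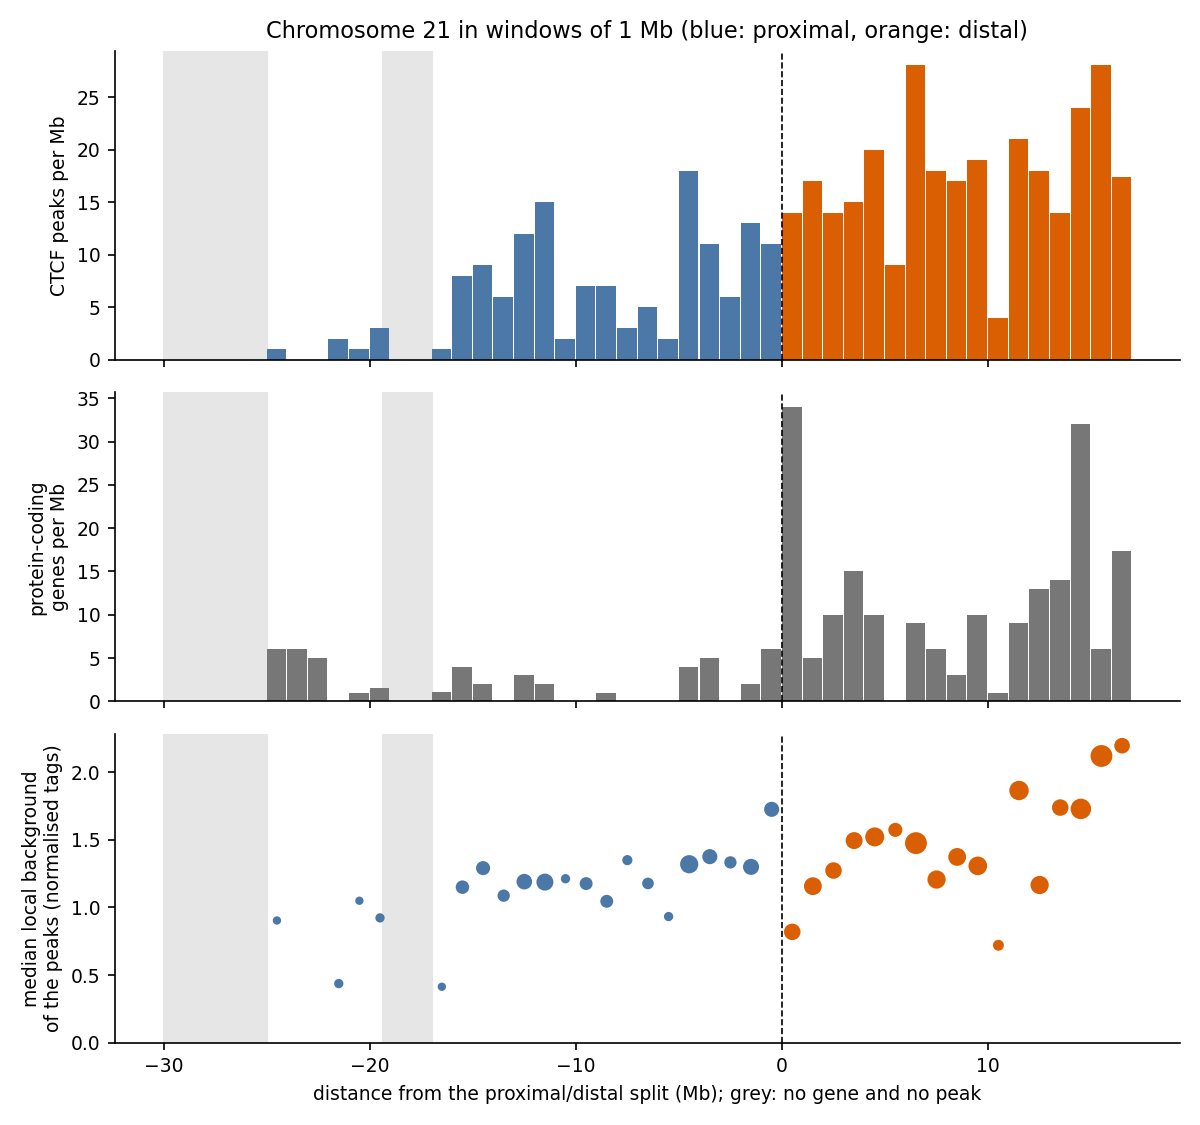
Chromosome 21 in windows of 1 Mb, placed by distance from the 30 Mb split (blue proximal, orange distal): CTCF peaks per Mb, protein-coding genes per Mb, and the median local background of the peaks in each window, with point size growing with the number of peaks. Peaks are densest distally, up to 28 per Mb, while the window with the most genes has 14 peaks.

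Density was higher in each successive stretch. From 13 to 25 Mb there were 77 peaks, or 6.42 per Mb (5.06 to 8.02), and 13 genes. Between 25 and 30 Mb, the stretch of APP, JAM2 and BACH1, 59 peaks gave 11.8 per Mb (8.98 to 15.2). The stretch from 30 to 32 Mb, with most keratin-associated genes and TIAM1, had 15.5 (10.5 to 22). From 32 to 45 Mb there were 221 peaks, or 17.0 per Mb (14.8 to 19.4). The last stretch, from 45 Mb to the end of the annotation, had 40 peaks, or 23.7 per Mb (16.9 to 32.2). Neighbouring intervals overlap at each step except the first. Over the 34 windows of the long arm, which share 1 library, peaks and genes per window had Spearman's rho 0.76 and Pearson's r 0.53 as a description.

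The 3 densest windows were unlike in their genes. The one from 36 to 37 Mb had 28 peaks and 9 genes, among them SIM2, a transcription factor gene, CHAF1B, which encodes a chromatin assembly subunit, and HLCS. The one from 45 to 46 Mb also had 28 peaks, with only 6 genes, ADARB1, POFUT2, COL18A1, SLC19A1, PCBP3 and COL6A1. None of them had a peak within 1 kb of an outermost end, but a peak lay 69 bp from a start annotated inside SLC19A1. The one from 44 to 45 Mb had 24 peaks and 32 genes, 16 of them keratin-associated. Median tags were 25.1 (20 to 33.8), 31.4 (14.1 to 54.1) and 13.4 (11.2 to 18.7) in that order, in normalised tags, which are scaled to a library size of 10000000.

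Long stretches without a peak lay mostly in the proximal part. Of 5 peak-free stretches over 500 kb on the long arm, 4 were proximal and 1 was distal. The longest, 916.9 kb at chr21:19508068-20424957, touched no protein-coding gene and lay between TMPRSS15, which encodes the intestinal protease enteropeptidase, and NCAM2, a neural adhesion gene. The second, 556.1 kb at chr21:40512977-41069042, lay mostly inside DSCAM and ended toward BACE2. The third, 545.1 kb at chr21:23968963-24514105, lay in the gene desert between NCAM2 and MRPL39. The next, 544.9 kb, began at the edge of the strong APP peak. No peak in a stretch means that none passed the caller's thresholds, not that CTCF is absent.

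Distal peaks also stood closer together. In the proximal part 28.9% of peaks (21.6 to 37.1) had a neighbour within 20 kb, and in the distal part 56.5% (50.6 to 62.3) did, against 55.6% on the other autosomes. Median spacing was 81.7 kb (58.1 to 101) proximally and 33.0 kb (28.1 to 40.7) distally. Distance to genes differed likewise: 53.5% of proximal peaks (44.97 to 61.9) were over 100 kb from any protein-coding gene end, and 8.56% of distal peaks (5.62 to 12.4) were. Peaks outside protein-coding genes made up 69.7% proximally (61.5 to 77.1) and 45.5% distally (39.7 to 51.5). Of all proximal peaks, 23.2% lay outside protein-coding genes but inside or within 1 kb of a noncoding one.

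Chromosome 21 peaks were on the weak side of the list. Their median was 17.4 normalised tags (15.9 to 20.3), lower than on 19 of the 21 other autosomes, against 20.3 (20 to 20.6) over the others. Those intervals just overlap. Chromosome 4, at 16.9, and chromosome 13, at 17.3, had slightly lower medians. The middle range ran from 11.5 to 30.7 tags. Proximal peaks had a median of 16.25 (14.3 to 18) and distal ones 19 (15.9 to 22.4), so the intervals overlap. The upper tail differed more. Only 2 of 142 proximal peaks (1.41%, 0.171 to 4.995) were in the top 10% of the whole list by the caller's score, against 24 of 292 distal peaks (8.22%, 5.34 to 11.98) and 10.4% on the other autosomes. Chromosome 4, at 3.75% (2.99 to 4.65), and chromosome 18, at 4.38% (3.14 to 5.91), were also low. Their intervals overlap the proximal one.

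The background around the peaks moved with these values. Local background, the tags expected from the surrounding 10 kb, had a median of 1.23 (1.17 to 1.30) proximally and 1.46 (1.39 to 1.55) distally, against 1.49 on the other autosomes. The proximal median was below that of every other autosome taken whole, with no match for gene density. In the last stretch from 45 Mb the median was 2.14 (1.80 to 2.42). The fold over that background hardly moved, at 13.45 proximally, 13.41 distally and 13.45 on the other autosomes. The median focus ratio, the caller's measure, as a fraction of tags, of how tightly a peak gathers around its centre, was 0.836 and 0.848. Tags of neighbouring peaks within those 10 kb can count in a peak's local background, and their part was not tested. No control library is named for this list, and the part of DNA copy number in the tag and peak counts was not tested.

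**Figure D3:**
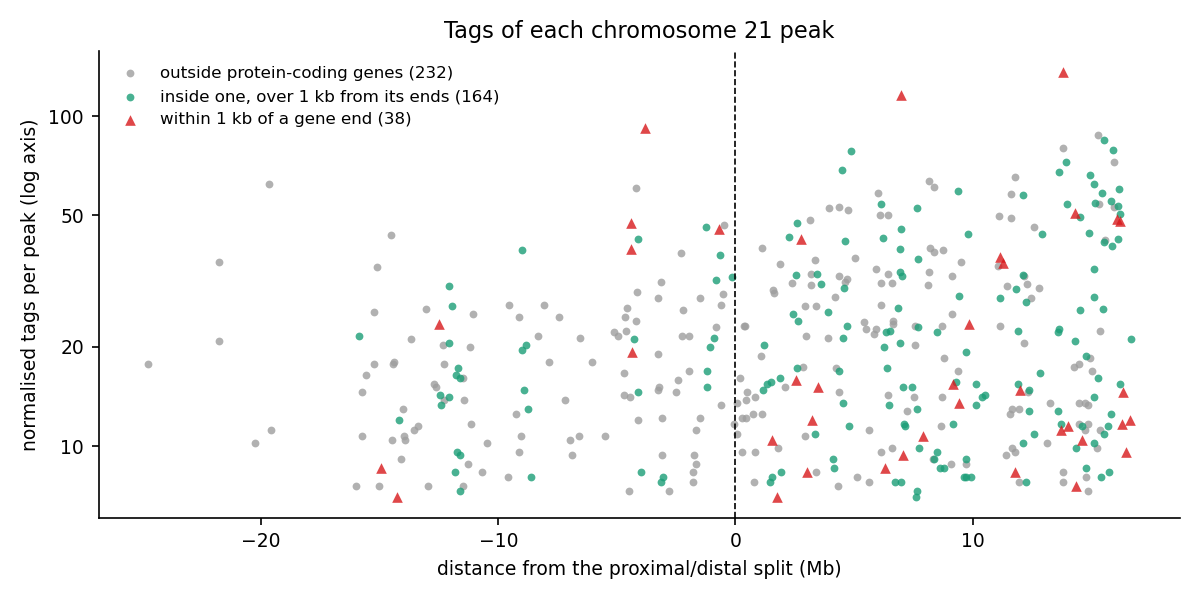
Normalised tags (log axis) of each of the 434 peaks by distance from the 30 Mb split, with triangles for peaks within 1 kb of a protein-coding gene end. The 2 strongest, at RRP1 and HLCS, are distal gene-end peaks, while 18 of the 30 distal gene-end peaks have under 15 tags.

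Peaks at gene ends ranged widely in strength. Of the 38 peaks within 1 kb of a protein-coding gene end, 30 were distal, with a median of 12.75 tags (10.7 to 15.9), below the 22.6 (21.6 to 23.7) of such peaks on the other autosomes. Among those 30, 18 had under 15 tags and 6 had over 40. Distal peaks inside genes, at 20.3 (15.4 to 23.2), and outside them, at 21.6 (16.9 to 23.9), were near the other autosomes' 19.5 and 20.6. The 8 proximal gene-end peaks ran from 7.03 to 91.9 tags. Gene-end peaks were 8.76% of all chromosome 21 peaks (6.27 to 11.8), against 12.5% (12.2 to 12.8) elsewhere. Other autosomes with few peaks per Mb had similar shares, 7.58% on chromosome 13, 7.88% on chromosome 18 and 8.96% on chromosome 4. The table of genes has no strand, so an end can be a start or a stop. Ends are the outermost positions of a gene, so peaks at starts annotated inside it are not counted as end peaks.

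Seen from the genes, 40 of 238 protein-coding genes had a peak within 1 kb of an end. That is 16.8% (12.3 to 22.2), against 29.2% on the other autosomes. It was the lowest share of the 22, and the others ran from 25.3% to 33.3%. With peaks at or above the list's median score alone it was 5.04%, against 15.9%. Counting peaks inside the gene as well, 103 of 238 had one, or 43.3% (36.9 to 49.8), against 59.3% elsewhere. None of the 19 short-arm genes had a peak, which allows a share of up to 17.6% (Clopper-Pearson, as for the other shares). On the long arm without keratin-associated genes, the shares were 22.9% (16.9 to 30) at the ends and 60.0% (52.2 to 67.4) in all. With that choice of genes the first interval includes the other autosomes' 29.2%, and the second share is near their 59.3%. Genes of this kind had a median length of 38.3 kb, against 24.8 kb for the genes of the other autosomes, and longer genes have more room for a peak inside. Proximal long-arm genes had a peak at an end in 7 of 30 and distal genes without the keratin-associated ones in 32 of 140, or 23.3% and 22.9%.

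**Figure D4:**
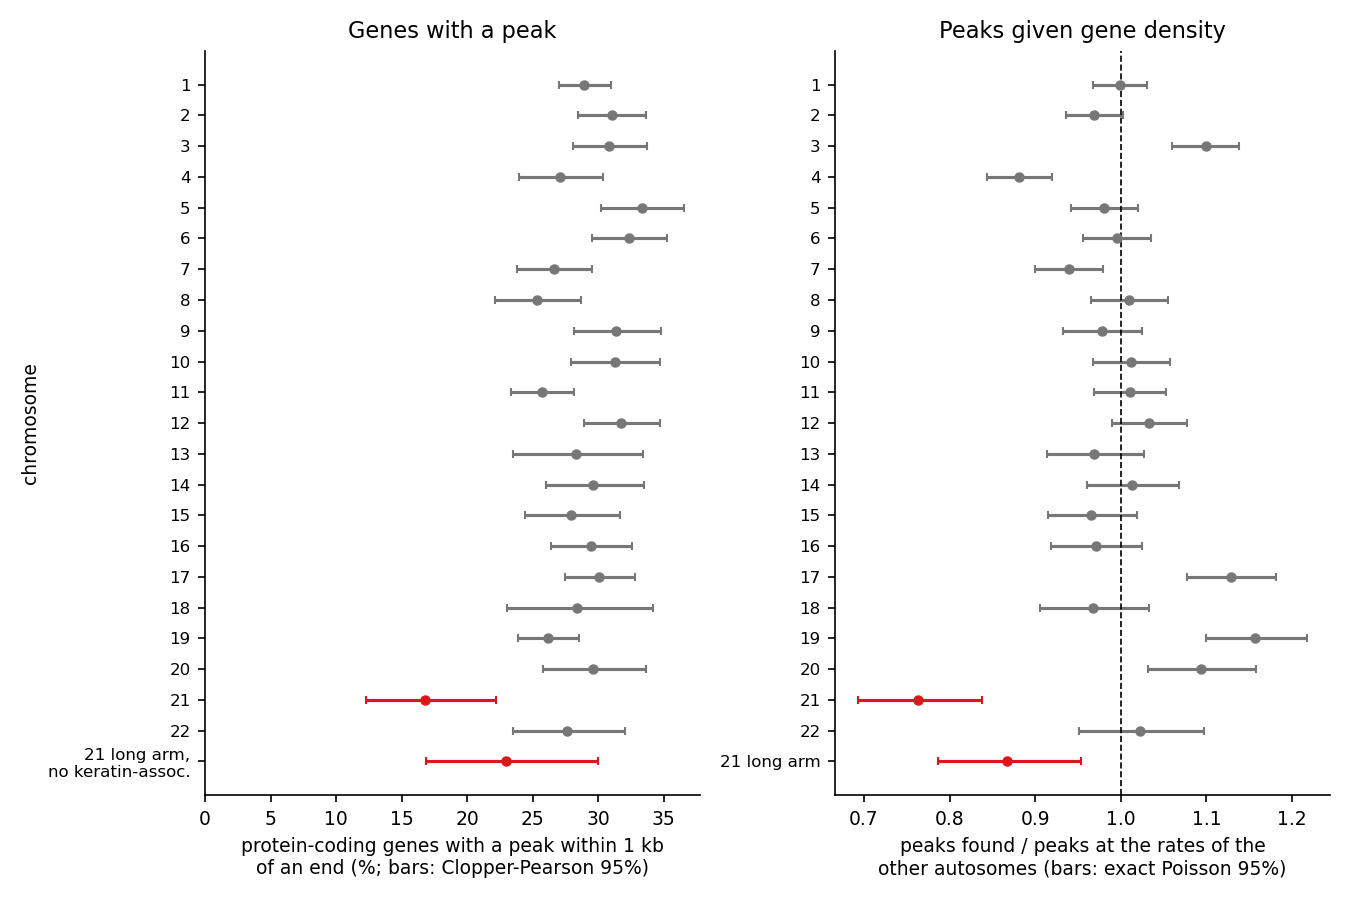
Left, the percentage of protein-coding genes on each autosome that had a peak at most 1 kb from an end, with Clopper-Pearson 95% intervals. Right, peaks found over the peaks at the rates of the other autosomes in windows of like gene number, with exact Poisson 95% intervals, and chromosome 21 (red) lowest in both at 16.8% and 0.763.

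The strongest peak of the chromosome, chr21:43789305-43789653, had 136.1 normalised tags (120 to 153, 261 tags in all) and was 226th of the whole list by score. Its centre lay 98 bp before RRP1, which encodes a ribosomal RNA processing factor. The second, with 116.3 tags (101 to 132), was 6 bp inside the end of HLCS, whose product attaches biotin to carboxylases. The third, at APP, which encodes the amyloid precursor protein, had 91.9 tags (79.1 to 107), an interval clear of the RRP1 peak but overlapping that of HLCS. It was the strongest proximal peak, 257 bp inside APP and 4 bp from the start of the divergent noncoding APP-DT. After these, by score, the peaks lay away from gene ends. The next were 4.7 kb from POFUT2 at 87.7 tags, inside the folate carrier gene SLC19A1 at 84.6, inside the blood transcription factor gene RUNX1 at 78.6, and inside PCBP3 at 78.9. A second peak near RRP1, 5.7 kb from its other side, had 79.9, the peak 10.9 kb from the collagen VI gene COL6A1 had 72.6, and peaks inside AGPAT3 and KCNE1 had 72.4 and 68.7. Intervals of these last 8 peaks overlap, so their order is not resolved.

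The proximal part had few strong peaks beside APP. By score, the next was 29.2 kb from GABPA, an ETS factor gene, with 60.6 tags (49.9 to 72.4). A peak on the short arm had 62.2 (51.3 to 74.1), 195.7 kb from TPTE. Peaks 253 bp inside MRPL39, a mitochondrial ribosomal protein gene, and 37.0 kb from the glutamate receptor gene GRIK1 had 47.6 and 46.8. The peak 121 bp before BACH1, a haem-responsive repressor gene whose promoter is printed above, had 45.5 (36.3 to 55.9). MRPL39, JAM2 and GABPA lie in the window from 25 to 26 Mb, which had 18 peaks, the most of any proximal window.

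Several long genes carried runs of peaks. CHODL, a membrane lectin gene, had 7 peaks of 8.33 to 30.5 tags inside, and NCAM2 had 6 of 8.07 to 39.3, the strongest 1.36 kb from its end. TMPRSS15 had 4 of 7.29 to 17.2. HEMK2 had 3, the strongest at 46.1. In the distal part, TIAM1, which encodes an exchange factor for RAC, had 7 peaks and none above 20.3. HLCS had 7, which along the gene were 26.3, 20.6, 39.6, 33.8, 7.81, 45.5 and, at its end, 116.3 tags. KCNJ6, a potassium channel gene, had 7 of 7.03 to 52.6 inside, and a further peak of 10.7 centred 40 bp outside its end. ADARB1, an RNA editing enzyme gene, had 6, and 3 of them stood close together on local backgrounds of 5.16, 5.41 and 4.59. At that distance the tags of one can count in the local background of another. PCBP3 had 6 of 8.33 to 78.9. DSCAM, the neuronal adhesion gene of 836 kb, had only 4, with 15.4, 13.3, 14.1 and 14.3 tags, or 0.478 per 100 kb against 2.90 in HLCS.

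Most gene groups were small, and they are given by their counts beside the shares over the genes of the other autosomes, 29.2% with a peak at an end and 59.3% with one at an end or inside. Keratin-associated genes had a peak at 1 of 49, KRTAP10-7, with 10.4 tags. Their cluster at 30 to 31 Mb held 32 genes in 600 kb with 9 peaks of 7.81 to 23.2 tags, none of them within 1 kb of an end of those genes. The trefoil and protease genes TFF1, TFF2, TFF3, TMPRSS2, TMPRSS3 and TMPRSS15 had a peak at an end in 0 of 6. The claudins, tight junction genes, had 0 of 3, and CLDN14 had 2 inside. One-carbon and purine genes had 0 of 4, among them CBS and GART, although SLC19A1 and FTCD held 3 peaks each, with 60.1 tags as the highest in FTCD. In SLC19A1, the peak of 10.9 tags lay 69 bp from a start annotated inside the gene.

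Transcription factor genes had a peak at an end in 4 of 11 and at an end or inside in 9. The 4 were AIRE, the thymic regulator, with 50.8 tags, BACH1 with 45.5, ZBTB21 with 14.8 and OLIG2 with 8.33. RUNX1 held 2 peaks, of 78.6 and 11.5, and ERG, also a blood and vessel factor gene, held 4, the weakest with 8.59. Receptor genes for interferon and interleukin had 1 of 4, IFNAR2 with 12, and IFNAR1 had 1 inside. Genes studied for dosage in Down syndrome had 1 of 9 at an end, APP, and 6 of 9 with any peak. RCAN1, a calcineurin inhibitor gene, held 4 of 13.5 to 41.9 tags, and DYRK1A, a kinase gene, held 1 of 15.1. No peak was called at SOD1, HMGN1 or S100B.

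Adhesion and synapse genes had 3 of 6 at an end, CXADR with 23.4 tags, JAM2 with 19.3 and APP. All 6 had a peak at an end or inside, where 59.3% of the genes elsewhere did. These 6 genes are 78.3 to 836 kb long, against a median of 24.8 kb for the genes of the other autosomes. The end-or-inside counts of the groups were not adjusted for gene length. Signalling genes had 5 of 12, namely TIAM1, PRMT2, NRIP1, RIPK4 and USP25, all of 12 tags or fewer. Collagens had 1 of 3, COL6A2 with 48.9 (39.5 to 59.9). A list named for chromatin and DNA metabolism, of which 8 of 9 genes were found, had 3, namely MCM3AP with 11.7, MORC3 with 8.59 and RRP1, whose product is known for ribosomal RNA processing instead. Potassium channels had 1 of 4, KCNJ6, and mitochondrial genes 1 of 5, MRPL39. With so few members, the intervals of these small groups other than the keratin-associated genes include the 29.2% of the other autosomes.

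The short arm and its copies on the long arm need separate reading. Its 6 peaks included 1 beside the ribosomal RNA gene RNA45SN2, with 20.8 tags on a local background of 0.282, and 1 at chr21:8234342-8234690 with 36.2 tags on 0.593. Promoter windows of 7 short-arm protein-coding genes were 99% to 100% identical to those of GATD3, SIK1, CBS, U2AF1, CRYAA, C21orf140 and SMIM34 on the long arm. Neither copy of any of the 7 had a peak inside or within 1 kb. The 374 kb from CBS to SIK1 held 2 peaks, of 10.2 and 13.5 tags, and the first had a local background of 0.0851, the lowest on the chromosome. A peak-free stretch of 342 kb, chr21:43269816-43611848, began in this span and contained SIK1. Reads from near-identical copies cannot be placed with certainty, how the alignment treated them is not given in the sources used here, and their part in the absence of peaks was not tested.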

How the data were processed

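The authors aligned the ChIP-seq reads and called peaks. The submitters' processing notes name Bowtie2, the build hg38 and HOMER, and no tool version is given in the sources used here. The peaks were called on 1 library of 19210460 tags, not on pooled replicates, per the file headers. They are 349 bp wide, had to pass a caller threshold of 15, which every deposited score meets, and 4-fold the density of the 10 kb around them, and no control library is named. Tag signal was deposited by the authors as tags per peak at a library size of 10000000, as the headers state. The focus ratio, a fraction, and the score were deposited as the caller gave them. The fold over the local region and the clonal fold were deposited as ratios, and the second was not used, nor was the deposited p-value.

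From these, local background was computed as tags divided by fold. Positions are 1-based. Gene positions and promoter sequences came from RefSeq tables of GRCh38.p14, the assembly that hg38 names. On chromosomes 1 to 22, 56215 genes were kept (18991 protein-coding) and 541 on unlocalised or alternate sequences dropped. Of 835 chromosome 21 genes, 388 had a promoter entry. No genome was given, so exons and sequences under other peaks were not analysed here. Intervals at 95% were exact Poisson for densities and tags, Clopper-Pearson for shares, exact conditional for ratios and order statistics for medians. On simulated positions, the same functions recovered known density ratios. Those positions were spread evenly within each part and were more numerous than the real peaks. Their recovery checks the calculation, not the reported intervals.

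Members, gene lists and settings were chosen with earlier results of these data known. Genes were named as the nearest to the 10 distal and 5 proximal peaks of highest score, up to 3 members of each list with a peak and the first without, those beside the 3 longest peak-free stretches, those of the 3 densest windows, and those with the most peaks inside. Others named, such as those in the group paragraphs and copies, were picked after their values were seen. Python 3.11.15, numpy 2.4.6, scipy 1.17.1, pandas 2.3.3 and matplotlib 3.10.9 were used.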

Additional observations from a re-analysis of the deposited data

How the results depend on the processing

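No paired analysis was possible because 1 library was used and no result comes from a test between samples. Leaving out a replicate was likewise not possible. Of 35 alternative values, 17 stayed inside the interval of the reported value, 18 moved and 0 reversed. Of the 35, 13 were chosen after seeing the data. With only peaks at or above the list's median score, density was 5.06 per Mb, where 2 other autosomes were lower, the distal to proximal ratio 3.55 and the share of genes with a peak 5.04%, against 15.9% elsewhere. Over the whole length density was 9.30 per Mb, still lowest. A split at 25 Mb gave a ratio of 3.43 and one at 35 Mb 2.25. With all genes counted, the ratio given gene density was 0.688 and the share of peaks at gene ends 15.9%, against 18.8% elsewhere. A window of 500 bp gave 5.53% of peaks and 10.9% of genes, and one of 5 kb gave 21.4% and 35.7%, against 26.1% and 54.6% elsewhere. With neighbours counted to 10 kb, 28.1% of peaks had one. On the long arm only, density was 12.7 per Mb, the distal to proximal ratio 2.18 and the ratio given gene density 0.867. Without keratin-associated genes as well, that last ratio was 0.904 and the share of genes with a peak 22.9%. The share of genes with a peak was lowest of the 22 autosomes under each alternative run. Depth limits single peaks: one of 15 tags before scaling, such as a peak of 7.55 normalised tags, has an interval of 4.37 to 12.9 normalised tags.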
